A study of Rangifer tarandus with 4 samples.

Results

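The killer cell lectin-like receptor (KLR) genes are described here as they stand in the gene annotation deposited with a single-cell RNA study of reindeer blood. They were taken by name: every gene line whose symbol is KLR, followed by a letter from A to K and a digit. That rule found 10 of the 21880 annotated genes, KLRA1, KLRB1, KLRC1, KLRD1, KLRF1, KLRF2, KLRG1, KLRG2, KLRJ1 and KLRK1. All coordinates are on the cattle (Bos taurus) assembly ARS-UCD1.2 and count from 1. Since the genes were chosen by their symbols alone, the counts below describe the whole set and carry no test.

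In the study, mononuclear cells were isolated from venous blood of reindeer (Rangifer tarandus) wounded 3 days earlier and made into 3′ single-cell libraries. Blood came from the saphenous vein, which stands for the supply of the back skin (2 libraries), or from the distal antler velvet (2 libraries), and about 12000 cells were loaded for each. The labels give no age, genotype or drug for either group. Read counts per cell are not used here; expression, sequencing depth and the contrast of antler with back are therefore not reported, and whether the libraries held NK cells was not examined.

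KLR proteins sit in the membrane of natural killer (NK) cells and of some T cells, with a C-type lectin-like domain outside the cell. Some bind class I molecules of the major histocompatibility complex or their relatives and hold the cell back, and others drive killing when they meet stress-induced ligands. In mammals most of the genes lie side by side in a region known as the NK complex, together with other lectin-like receptors of myeloid cells and platelets. In a library read at the 3′ end of transcripts, reads fall mostly in the last exon, so the annotated end of each gene model sets which of them can be assigned to the gene.

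Of the 10 genes, 9 lay on chromosome 5 within 1995203 bases, between 98969137 and 100964339, and KLRG2 lay alone on chromosome 4. From low to high coordinates the order on chromosome 5 was KLRA1, KLRC1, KLRJ1, KLRK1, KLRD1, KLRF2, KLRF1, KLRB1 and KLRG1. KLRA1, KLRJ1, KLRK1 and KLRB1 were on the plus strand, and the other 5 on the minus strand. The distance from a KLR gene to the next ranged from 41817 bases, between KLRK1 and KLRD1, to 383900 bases, between KLRD1 and KLRF2. The spans of the 9 genes covered 10.8% of the cluster, and 4.47% without KLRB1, whose model is far longer than the rest. The gene nearest to the cluster was MAGOHB on the KLRA1 side, at 6029 bases, and M6PR on the KLRG1 side, at 20614 bases.

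**Figure D1:**
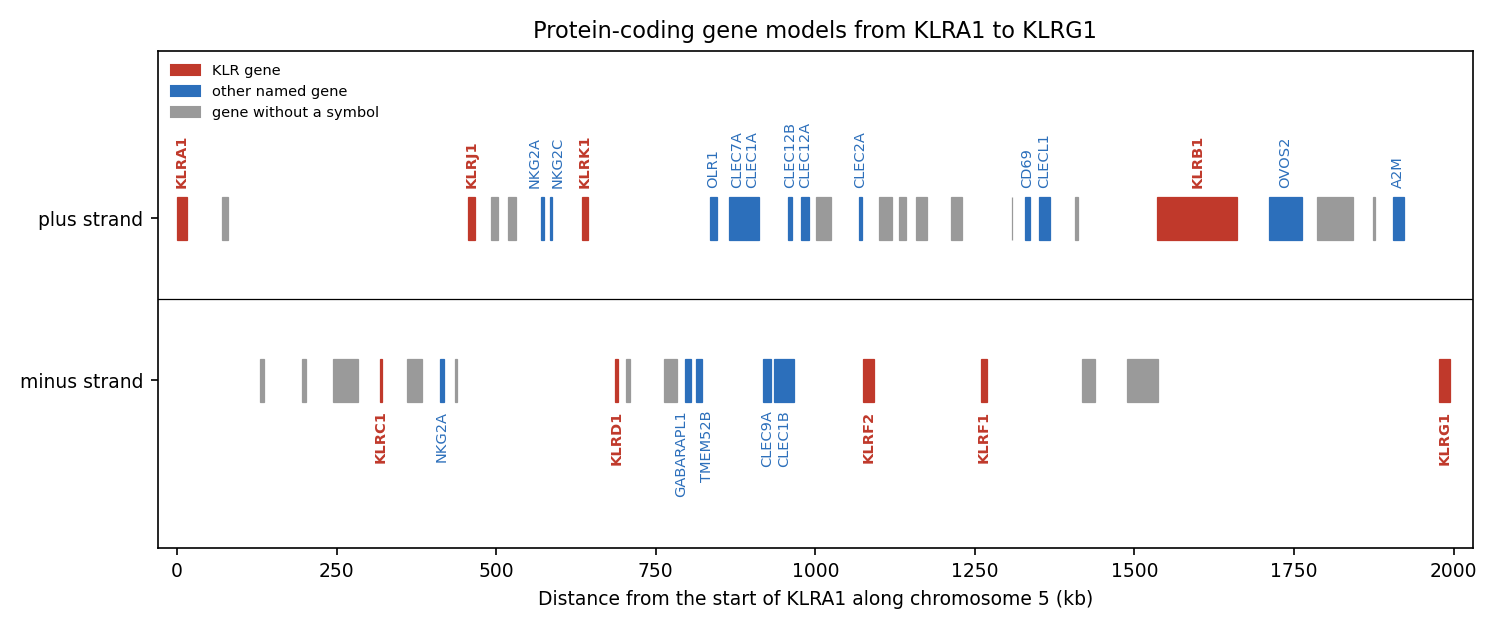
Positions of the 47 protein-coding gene models from KLRA1 to KLRG1, drawn to scale as boxes against the distance from the start of KLRA1 in kb; plus-strand genes are above the line and minus-strand genes below it. The 9 KLR genes in red are spread over the whole stretch, the 21 genes without a symbol in grey stand in 7 of the 8 gaps between them, and the lectin-like genes from OLR1 to CLEC12A form a block between KLRD1 and KLRF2.

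The receptor for non-classical class I molecules is built from KLRD1 (CD94) joined to a product of the C group. KLRD1 (ENSBTAG00000046389) ran from 99655608 to 99660385 on the minus strand, with 2 transcripts of 570 and 558 coding bases. Its longer transcript opened with a coding segment of just 7 bases, and the other with 17 bases. Neither transcript of KLRD1 had a 5′ or a 3′ untranslated region (UTR). KLRC1 (ENSBTAG00000054633), the name used in human for the inhibitory chain NKG2A, ran from 99286439 to 99290988 on the minus strand. With 4550 bases it was the shortest KLR model by span, and its 6 exons held 708 coding bases and no UTR at all.

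KLRC1 was the only gene with a C-group symbol that the rule could find, but the annotation held other genes built like it. The symbol NKG2A was carried by 2 further genes (ENSBTAG00000052514 and ENSBTAG00000052658), and NKG2C, in human an activating chain, by 1 (ENSBTAG00000038843). The 6 coding segments of KLRC1 measured 187, 99, 54, 152, 101 and 115 bases. The unnamed genes ENSBTAG00000046268 and ENSBTAG00000054018 had the same 6 lengths in the same order. The unnamed gene ENSBTAG00000049367, both NKG2A genes and NKG2C matched 5 of the 6 lengths, and the unnamed ENSBTAG00000052486 matched 4. These 7 genes were the only ones in the whole annotation to match KLRC1 in 4 or more of 6 segments, and all 7 lay between KLRA1 and KLRK1. Within the cluster, lengths were compared position by position, and only in genes with 6 coding segments. Equal lengths do not show how alike the sequences are, which was not measured here, so how reads would be divided among these models is not known.

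The models of the C-type structure differed in their 3′ ends. The NKG2A gene on the minus strand had a 3′ UTR of 2460 bases and the NKG2A gene on the plus strand 507 bases, while NKG2C and KLRC1 had none. Of the 4 unnamed genes, ENSBTAG00000049367 had 1427 bases, ENSBTAG00000046268 had 183 bases, ENSBTAG00000052486 had 142 bases and ENSBTAG00000054018 had none. The gene carrying the symbol KLRC1 was therefore among the 3 of these 8 models that stop at the stop codon.

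KLRK1 (NKG2D) is an activating receptor for stress-induced ligands of the MIC and ULBP families. Its gene (ENSBTAG00000004917) ran from 99603137 to 99613790 on the plus strand. Both of its transcripts coded for the same 606 bases in 6 coding segments and differed in their first exons, with 5′ UTRs of 357 and 84 bases and 3′ UTRs of 48 and 44 bases. The 3′ ends of KLRK1 and KLRD1 faced each other over 41817 bases without any gene between, the only gap in the cluster that held none. The unnamed gene ENSBTAG00000000966 lay 11460 bases beyond the 5′ end of KLRD1, on the same strand, and its last 3 coding segments had the lengths found in KLRD1.

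KLRF1 (NKp80), an activating receptor of human NK cells, and KLRF2 (NKp65), its close relative, are known in human as receptors for CLEC2 proteins. KLRF1 (ENSBTAG00000037534) ran from 100228198 to 100238336 on the minus strand, with 699 coding bases in 6 exons and no UTR on either side. KLRF2 (ENSBTAG00000046980) ran from 100044286 to 100060577 on the minus strand, with 615 coding bases in 6 exons, a 5′ UTR of 581 bases and no 3′ UTR. CLEC2A, whose product is the ligand of KLRF2 in human, was its nearest neighbour, and the 3′ ends of the pair faced each other over 2621 bases. That was the shortest distance from any KLR gene to the next gene in the 3′ direction, against a median of 37541 bases over the 10 genes.

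KLRB1 (CD161, in human an inhibitory receptor of NK cells and a marker of innate-like T cells) had the longest model. Its gene (ENSBTAG00000012029) ran from 100504892 to 100630214 on the plus strand, a span of 125323 bases against a median of 12841.5 bases over the 10 genes. The length came from a single intron of 114913 bases before the last exon of 1 of its 2 transcripts. Only 47 of the 16798 other named protein-coding genes, or 0.280%, had a last intron at least that long. The other transcript of KLRB1 spanned 12436 bases and ended at 100517929, with no UTR. The last exon of the longer transcript began 111134 bases past that end, and no other gene lay between.

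KLRB1 thus had 2 annotated ends, and whether reads fell at either was not examined. Both transcripts closed with a coding segment of 148 bases, although these lie in different exons, and the shorter transcript lacked the segment of 99 bases (579 against 678 coding bases). The whole 3′ UTR of KLRB1 belonged to the distant exon and measured exactly 1000 bases, a length that was also the longest 3′ UTR of 512 other named genes (3.05%). At its 5′ end KLRB1 overlapped the span of the unnamed gene ENSBTAG00000046324, on the minus strand, by 1521 bases, with no exon base shared.

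KLRA1 belongs to the Ly49 family, which in mouse provides the main inhibitory receptors for class I molecules. The gene (ENSBTAG00000009252) opened the cluster, from 98969137 to 98984165 on the plus strand, and had 831 coding bases in 8 exons, of which 6 were coding. KLRJ1 (ENSBTAG00000022861) ran from 99425439 to 99435639 on the plus strand and had the most exons of the set, 9, of which 8 were coding, with 825 coding bases. Both genes had an intron after the stop codon. In KLRA1 the 3′ UTR was split into 9 bases before and 536 bases after an intron of 85 bases, and in KLRJ1 into 36 and 141 bases around an intron of 93 bases. Of the other named genes, 5.57% had a transcript with a 3′ UTR in more than 1 segment.

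KLRG1 is an inhibitory receptor for cadherins that marks antigen-experienced T cells and mature NK cells. It closed the cluster (ENSBTAG00000013640, 100946808 to 100964339, minus strand) and had the shortest coding sequence, 558 bases in 5 exons, with a 5′ UTR of 103 bases and a 3′ UTR of 917 bases. The 316593 bases between it and KLRB1 held OVOS2 and A2M, genes of the alpha-2-macroglobulin family, and 2 unnamed genes. KLRG2 (ENSBTAG00000017793) ran from 102962181 to 102978225 on the minus strand of chromosome 4. It had the longest coding sequence, 1266 bases in 5 exons, of which the first coding segment held 796 bases. Its 5′ UTR measured 2 bases and it had no 3′ UTR. Its nearest neighbours were the unnamed gene ENSBTAG00000017770 at 11871 bases and, on the other side, the lectin-like gene CLEC2L at 41222 bases.

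The coding sequences of the KLR genes were short and cut in much the same way. Their median was 688.5 bases, from 558 to 1266, against 1344 bases over the other named protein-coding genes (quartiles 855 and 2127). The median number of exons was 6, against 8, and 5 of the 10 genes had exactly 6 exons, as did 6.98% of the other named genes. All 10 models held a start and a stop codon in the transcript with the longest coding sequence, as did 96.7% and 99.6% of the other named genes. A single transcript was annotated for 7 of the 10, and for 53.9% of the other named genes.

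The likeness was closest toward the stop codon, in the segments that in human lectin-like receptors encode the lectin-like domain. The last 3 coding segments together measured from 359 bases in KLRF1 to 419 bases in KLRB1, a range of 60 bases. The coding sequence before them varied far more, from 187 to 445 bases in 9 genes and 898 bases in KLRG2. The third-last segment measured 140 to 161 bases and was 152 bases in KLRC1, KLRJ1, KLRK1 and KLRD1. The second-last measured 101 to 116 bases, and the last 106 to 148 bases. A segment of 99 bases also recurred, in KLRC1, KLRJ1, KLRF2, KLRF1 and KLRB1.

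**Figure D2:**
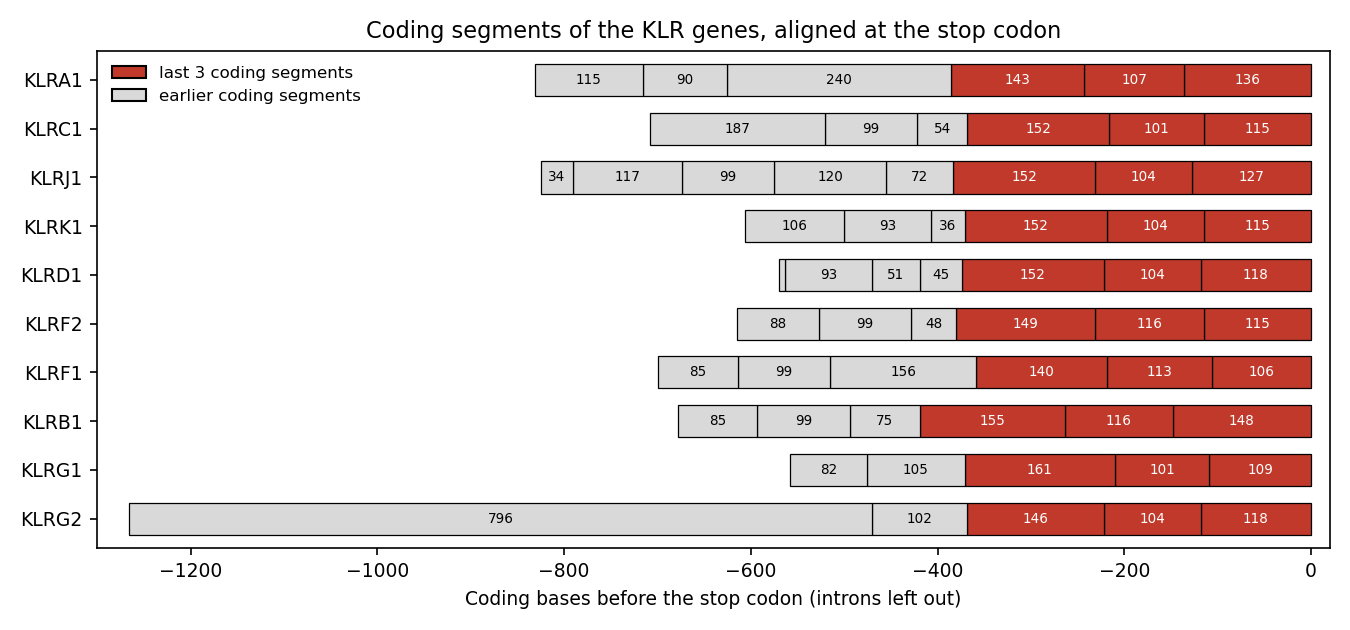
Coding segments of the 10 KLR genes in the transcript with the longest coding sequence, aligned at the stop codon, with the length of each segment over 30 bases printed in it; the x axis counts coding bases and leaves introns out. The last 3 segments, in red, add up to between 359 and 419 bases in all 10 genes, while the segments before them range from 187 bases in total to 898 bases in KLRG2.

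The introns also fell at the same points of the codon in all 10 genes. The annotation gives each coding segment a frame, the number of bases at its start that complete a codon begun in the segment before. In every KLR gene the first segment had frame 0, the last 2 segments had frames 0 and 1, and all segments between had frame 2. Only genes with at least 4 coding segments could be counted as having this order, and 14566 of the 21861 protein-coding genes had that many. The order was present in 0.548% of the other named protein-coding genes (92 of 16798). In the whole annotation 127 other genes had it, and 22 of them lay between KLRA1 and KLRG1. Among the 38 genes there that are not KLR genes the share was therefore 57.9%, against 0.481% of the protein-coding genes outside the cluster.

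When the last 3 segments also had to lie within the ranges of the KLR genes, which were read from the KLR genes themselves, 18 other genes remained. Of these, 11 lay in the cluster: the 2 NKG2A genes, NKG2C, OLR1, CLEC12B and 6 unnamed genes. The other 7 lay outside the cluster. CLEC4D, CLEC4E and CLEC6A lay beyond KLRG1 on chromosome 5, CLEC4G, CD209 and FCER2 on chromosome 7, and CD72 on chromosome 8. All 7 are lectin-like receptor genes, among them FCER2, the low-affinity receptor for IgE, and CD209, a receptor of dendritic cells.

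**Figure D3:**
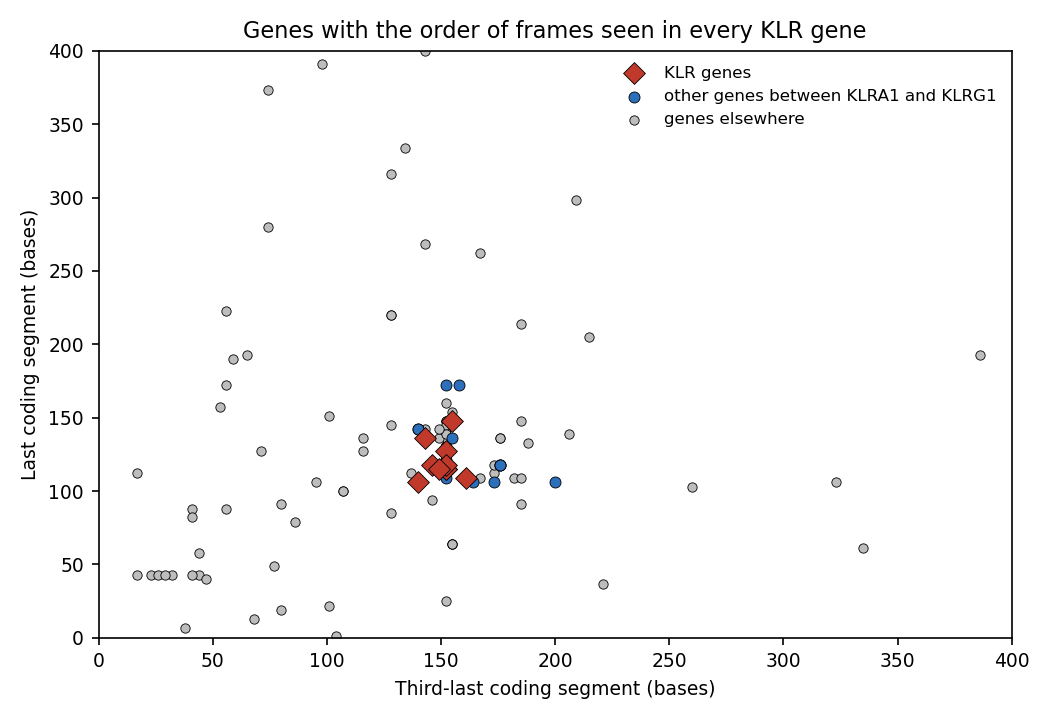
Length of the last coding segment against that of the third-last, in bases, for genes with the order of frames found in every KLR gene; 115 genes are drawn and 22 lie beyond the axis limit of 400 bases. The KLR genes (red diamonds) sit at 140 to 161 bases on the x axis and 106 to 148 bases on the y axis, with other genes of the cluster (blue) on and around them and most genes from elsewhere (grey) scattered.

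Between the outermost KLR genes lay 38 other protein-coding genes, and 21 of them had no symbol. That is 55.3%, against 20.6% of the genes on the rest of chromosome 5 and 23.1% of all protein-coding genes. With the KLR genes counted, which have a symbol by the rule, 44.7% of the 47 genes were unnamed. The gap from KLRA1 to KLRC1 held 4 unnamed genes and no named gene, and so did the gap from KLRF2 to KLRF1. Another 4 unnamed genes lay between KLRF1 and KLRB1 beside CD69, an early activation marker of lymphocytes, and CLECL1. The gap from KLRD1 to KLRF2 held 3 unnamed and 10 named genes, and the remaining gaps with unnamed genes held 2 each.

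Of the 21 unnamed genes, 11 (52.4%) had the order of frames of the KLR genes, against 0.693% of all unnamed protein-coding genes. ENSBTAG00000052865, next to KLRA1 on its strand, had 4 coding segments of 121, 140, 107 and 142 bases. All 4 unnamed genes between KLRF2 and KLRF1 had the order, and in 3 of them, ENSBTAG00000006851, ENSBTAG00000049487 and ENSBTAG00000012026, the last 3 segments measured 176, 107 and 118 bases. ENSBTAG00000053740, between KLRF1 and KLRB1, had last segments of 155, 113 and 136 bases and a 3′ UTR of exactly 1000 bases. The unnamed genes without the order included the single-exon ENSBTAG00000016876, with 573 coding bases, and ENSBTAG00000038461, beside OVOS2, with 4386 coding bases in 32 exons. They also included genes that shared segment lengths with genes that had it. ENSBTAG00000046324 opened with segments of 79, 129, 176 and 107 bases, as did ENSBTAG00000049487. ENSBTAG00000000966 ended with the lengths of KLRD1, as given above. The median coding length of the unnamed genes was 636 bases.

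A 3′ UTR was annotated for 5 of the 10 KLR genes, against 79.8% of the other named protein-coding genes. KLRB1 had 1000 bases, KLRG1 917, KLRA1 545, KLRJ1 177 and KLRK1 48, and the other 5, KLRC1, KLRD1, KLRF1, KLRF2 and KLRG2, had none. The middle value of those 5 lengths was 545 bases, and the median of the other named genes with a 3′ UTR was 649.5 bases. At a minimum of 200 bases 3 of the 10 qualified, against 66.2% of the other named genes. All 4 genes on the plus strand had a 3′ UTR, and of the 6 on the minus strand only KLRG1 did. Over the other named genes the share was 80.5% on the plus strand and 79.1% on the minus strand.

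A 5′ UTR was annotated for 7 of the 10, against 80.6% of the other named genes. KLRB1 had 602 bases, KLRF2 581, KLRK1 357, KLRA1 293, KLRJ1 142, KLRG1 103 and KLRG2 2. KLRC1, KLRD1 and KLRF1 had neither UTR, so their models run from start codon to stop codon. A lack of annotated UTR says nothing on the transcripts of reindeer cells, and how many reads it would cost these genes was not measured here.

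**Figure D4:**
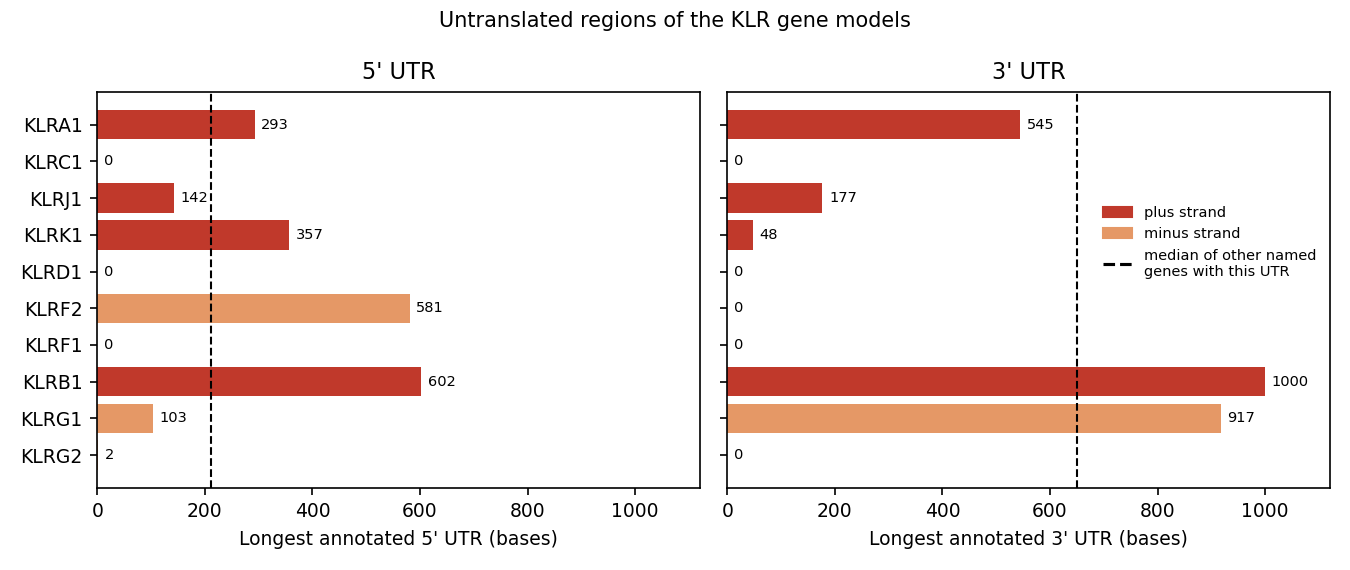
Longest annotated 5′ UTR (left) and 3′ UTR (right) of each KLR gene in bases, with bars coloured by strand and a dashed line at the median of the other named genes that have such a UTR (211 and 649.5 bases). KLRC1, KLRD1 and KLRF1 have neither, and KLRF2 and KLRG2 have no 3′ UTR.

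Of the 9 KLR genes in the cluster, 5 had a 3′ UTR, and KLRG2, outside it, had none. Among the 17 other named genes of the cluster 15 had a 3′ UTR (88.2%), and among the 21 unnamed genes 13 did (61.9%), against 18.0% of all unnamed protein-coding genes. No KLR gene shared an exon base with another gene, on either strand; of the other named genes 1.81% did on the same strand and 9.17% on either strand. Distances to the next gene on the same strand were taken in the 3′ direction only. They were at least 25715 bases, from KLRJ1 to the unnamed ENSBTAG00000051183, and up to 440395 bases for KLRG1.

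Some activating KLR receptors, such as KLRK1, signal through small adaptor proteins, while inhibitory ones signal through their own tails. All 6 genes of a list of signalling adaptors of NK cells were matched and had a 3′ UTR, as did 79.8% of the other named genes. HCST (DAP10), the adaptor of KLRK1, had 94 bases and TYROBP (DAP12), the adaptor of activating C-group receptors, had exactly 1000 bases. The 2 genes lie in opposite directions on chromosome 18 and shared 525 exon bases on opposite strands, the one such overlap among the genes of the 4 lists. FCER1G and CD247, adaptors of Fc and other receptors, had 293 and 1112 bases. SH2D1A and SH2D1B, adaptors of the SLAM family and not of KLR proteins, had 340 and 1420 bases.

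Of 14 ligand symbols, 7 were matched, and all 7 had a 3′ UTR, as did 79.8% of the other named genes. ULBP17 and RAET1G, of the family that KLRK1 binds, lay on chromosome 9 with 911 and 299 bases. The cadherins bound by KLRG1 had long ones, 1697 bases in CDH1, 1214 in CDH2 and 3539 in CDH4, whereas CLEC2A had 36 bases. BOLA-NC1, a non-classical class I gene, had 275 bases. No gene carried the exact symbol CLEC2D, CLEC2B, MICA, MICB, ULBP1, ULBP2 or ULBP3, and these are not analysed here.

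A list of 12 other lectin-like genes of the NK complex, which does not hold every such gene, was matched in full. A 3′ UTR was annotated for 10 (median length 813 bases), and 11 had the order of frames of the KLR genes. Over the other named protein-coding genes the shares were 79.8% and 0.548%. The exception in that list was CLEC1B, a receptor of platelets. Its transcript with the longest coding sequence had 16 exons, coding segments as short as 8 bases and no annotated stop codon. Outside the list, CLECL1 had the order. CLEC2A had frames 0, 0 and 1, but its 3 coding segments were too few to be counted. The 2 without a 3′ UTR were CLEC4D and CLEC4E, receptors of myeloid cells that lie beyond KLRG1. CLEC7A, the beta-glucan receptor Dectin-1, had 869 bases, and CLEC1A began 70 bases past its end on the same strand.

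NK receptors of the immunoglobulin family made a further comparison. Of 14 symbols 11 were matched. Of these, 7 had a 3′ UTR and none had the order of frames, against 79.8% and 0.548% of the other named protein-coding genes. KIR3DL1 and KIR2DS1, of the killer cell immunoglobulin-like receptors that bind class I molecules in human, had neither UTR. CD226 had neither as well, and CD244 had a 5′ UTR of 352 bases but no 3′ UTR. KIR2DL5A had 347 bases, FCGR3A, the Fc receptor CD16, had 291, and the natural cytotoxicity receptors NCR1 and NCR3 had 136 and 66 bases. TIGIT, an inhibitory receptor, had the longest with 2233 bases, followed by SLAMF7 with 1714 and CD96 with 1413. No gene carried the exact symbol NCR2, CD160 or KIR2DL1, and these are not analysed here.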

How the data were processed

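The deposited gene annotation (1020224 lines) was the table used. Per the file headers, it was built on cattle assembly ARS-UCD1.2. It lists the start, end and reading frame of features, in bases, and belongs to none of the 4 samples. The submitters' processing notes mention STAR, Cell Ranger 3 and Seurat but not their order. The use made of a cattle annotation for reads of reindeer is not stated in those notes. No genome sequence was used, so no sequence is printed and identity between genes was not computed.

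Coding length and exon number were read from the transcript with the longest coding sequence, without the stop codon, and each UTR as the longest sum of its segments over all transcripts. A gene was unnamed if it had no symbol or an identifier in its place. KLR genes at most 1000000 bases apart formed a cluster. The background was 16798 other named protein-coding genes. The named genes were the KLR genes, those between them and 4 lists of adaptors, ligands, lectin-like genes and NK receptors; FCER2, CD209, CD72, CLEC4G and CLEC2L were named after their values were seen. The order of frames, the segment ranges, the comparison with KLRC1 and the last intron of KLRB1 were likewise chosen after seeing the data. Members and lists were chosen with earlier results of these data known. No test was made. The reader was tested on a simulated annotation. Python 3.11.15, NumPy 2.4.6 and matplotlib 3.10.9 were used.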

Additional observations from a re-analysis of the deposited data

How the results depend on the processing

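The counts and medians come from 1 annotation, so they have no replicate error, and no depth bears on them. No paired analysis was possible because the annotation holds no value of any sample. Leaving out a sample was not possible for the same reason. With a gap of at most 200000 bases the largest cluster held 4 KLR genes in place of 9. A minimum of 200 bases left 3 KLR genes with a 3′ UTR in place of 5, and 4 with a 5′ UTR in place of 7. The median coding length of 688.5 bases was 657 bases with the shortest coding sequence of each gene, 678 bases in the cluster alone and 699 bases with the NKG2A and NKG2C genes added, an alternative chosen after seeing the data. With those genes the set held 13 genes, 7 of them with a 3′ UTR. The median of 6 exons was equal under the 3 alternatives tried for it. The 21 unnamed genes became 19 when KLRB1 was taken as the limit, also chosen after seeing the data. The count of 0 KLR genes sharing exon bases was also 0 on either strand and for whole spans on the same strand.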
